A study of Drosophila melanogaster with 14 samples.

Results

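The transcripts described here are those of whole heads of Drosophila melanogaster of the wild-type strain Canton-S (CS heads). They were measured on 6 of the 14 arrays of a study that isolated messenger RNA from photoreceptor cells by mRNA tagging, in which a poly(A)-binding protein carrying a FLAG tag is expressed in chosen cells. The other arrays held 4 whole-head samples of Rh1-GAL4 flies carrying a UAS transgene for the tagged protein (Rh1 heads) and 4 samples of RNA recovered on anti-FLAG beads from fixed heads of such flies, labelled photoreceptor cells R1-R6 (IP). The Rh1 promoter is active in the outer photoreceptors R1 to R6, so the driver reaches only part of the head, and the labels spell the tagged protein as dPABP in one place and as hPABP in another. Each whole-head sample held about 100 heads, broken from bodies in liquid nitrogen and sieved, and the labels used here give neither sex nor age. Since nothing in them says that the samples came from separate cohorts of flies, spreads and p-values describe these samples and may be technical.

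Genes were taken from the 12442 probe sets that the platform's table pairs with 1 gene, which stand for 10843 genes. Each gene was represented by its brightest such probe set in CS heads, and genes were ordered by the mean signal over the 6 arrays. A signal is the hybridisation brightness of a probe set on a linear scale with no absolute unit. It depends on how well its probes bind as well as on how much RNA there is, so the order is one of signals, not of molecules. In bulk samples, more cells of a kind and more RNA per cell cannot be told apart.

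A fly head holds the compound eyes, the brain with its glia, antennae and mouthparts, muscle, a layer of fat body and the cuticle. Photoreceptors detect light through a rhodopsin whose signal is shut off by arrestins. The head fat body, a counterpart of liver and adipose tissue, secretes nutrient carriers and immune peptides, and in females it also makes yolk proteins. Ribosomal proteins and the enzymes of respiration are made in nearly all of these cells.

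The arrays of CS heads resembled each other, with correlations across probe sets of 0.988 to 0.996 on the log2 scale. Replicate 5 had the lowest mean correlation with the others, 0.990, against 0.993 for replicate 4 and 0.994 to 0.995 for the rest. Of 22 markers of tissues that a head contains, 19 had a probe set, with a median signal of 6435, against 211.3 for the median of all genes. Of 20 markers of testis, accessory gland and ovary, 18 had a probe set, with a median signal of 246.7 and a highest of 1175 (Mst98Ca, a testis gene). Among the head markers 17 lay above the median gene and 12 in the top 2000, against 10 and 4 of the body markers. As a set the head markers stood higher, but the median of the body markers was not below that of all genes. Low head markers included elav, a marker of nearly all neurons, with a signal of 72.8 at rank 8810. The actin gene Act88F had 147.5 at rank 6737, the presynaptic gene brp stood at rank 3779 and the glial regulator repo at 2984. Summed over each list, head markers ran from 153956 to 163623 and body markers from 5672 to 6199 between the 6 arrays. The 5′ over 3′ signal ratio of the control transcript eIF-4a, a measure of RNA integrity and labelling, was 0.604 to 0.678 in Rh1 heads and 0.444 to 0.593 in CS heads.

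The yolk protein genes gave the 3 highest signals of the head, and behind them stood genes of the eye, muscle, cuticle and fat body together with a block of ribosomal protein genes. The 100 brightest genes held 22.0% of the summed signal of all genes, the 500 brightest 44.7% and the 2000 brightest 68.5%. Signals fell from 29538 at rank 1 to 17704 at rank 10, 12611 at rank 30, 7749 at rank 100 and 1584 at rank 500. No step set the 100 apart: Mpcp2, a mitochondrial phosphate carrier, stood at rank 100 with 7749, and the next gene had 7658. Another 60 probe sets with no paired gene and 4 paired with several were at least as bright as rank 100, so the named genes are not the whole of the bright fraction.

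**Figure D1:**
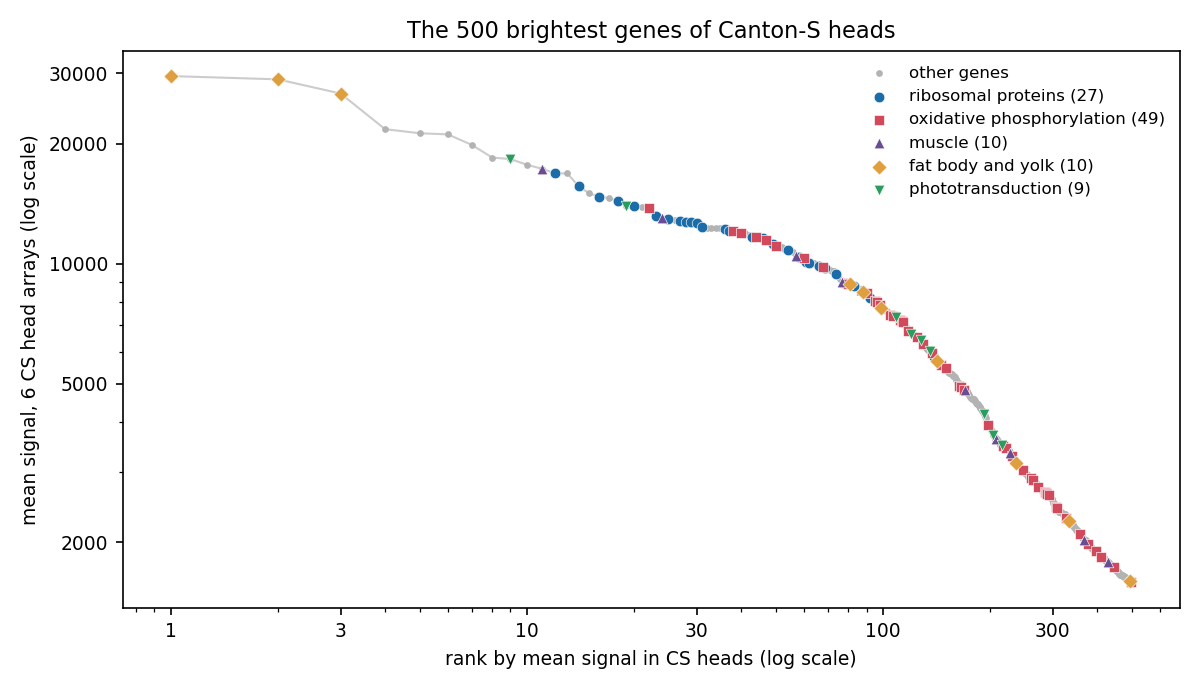
Mean signal over the 6 CS head arrays (vertical, log scale) against rank (horizontal, log scale) for the 500 brightest genes, with members of 5 gene lists marked and counted in the legend. The fat body and yolk list opens the curve at ranks 1 to 3, ribosomal protein genes crowd between ranks 12 and 92, and oxidative phosphorylation genes spread from rank 22 to the end of the range.

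Yolk proteins are the nutrient store of the egg, made by the female fat body and the follicle cells of the ovary. Yp1 had signals from 26792 to 32078 with a median of 29475, Yp2 from 26592 to 32187 with a median of 28814, and Yp3 from 24384 to 28932 with a median of 26593. All 3 genes were highest on replicate 1 and lowest on replicate 3. Outside the yolk genes the fat body list was led by apolpp, which encodes the lipid carrier apolipophorin (mean 8882, rank 81), the storage protein gene Lsp2 (8508, rank 88) and fit, a female-biased secreted factor (7751, rank 99). Another probe set of apolpp had 284.7. In all, 6 of 17 fat body genes lay in the top 100 and 10 in the top 500. The male fat body list held only Obp99b (720 on average, rank 1435) and dsx, the sex-determination regulator (169, rank 6252).

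The eye was represented near the top by the arrestins Arr2 (17462 to 18894, median 18312, rank 9) and Arr1 (13188 to 14718, median 13846, rank 19), and by retinin, a protein of the corneal lens (16114 to 18780, median 17787, rank 10). Pdh, a retinal dehydrogenase of the eye, followed at rank 52 with 10670 to 11659 and a median of 10913. These 4 genes were steady, with SDs of 0.043 to 0.075 on the log2 scale over the 6 arrays. Of 18 phototransduction genes with a probe set, 2 lay in the top 100, 9 in the top 500 and 13 in the top 2000. The only opsin gene among the 18 was Rh7 (109.3, rank 7709). The list therefore does not show where the Rh1 opsin stands in the order. The light-gated channel genes trpl (mean 7347, rank 109) and trp (6435) stood just below the top 100, and rtp (6658, rank 120) and Ggamma30A, a G protein subunit (6028, rank 136), stood beside them. At the other end, Galphaq, the alpha subunit of the same G protein, had 122.9 by its brightest probe set and stood at rank 7356.

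Neuronal transcripts mostly stood lower in the order of signals. The neuropeptide list held Nplp2 (20864 to 22347, median 21864, rank 4) and Nplp3 (18300 to 23215, median 21554, rank 5), genes named for neuropeptide-like precursors. Nplp4 followed at rank 131, but the remaining members began at rank 643 with Pdf, the peptide of clock neurons (1285). No member of the pan-neuronal list or of the list of transmitter systems of other neurons was in the top 100. The brightest were nrv3, a sodium pump subunit of neurons (6151, rank 132), nSyb, a synaptic vesicle protein (1674, rank 460), ple, the tyrosine hydroxylase of dopamine synthesis (1337, rank 621), and Gad1, the enzyme of GABA synthesis (1328, rank 625). Among glial genes Gs2, a glutamine synthetase, stood at rank 32 with 11414 to 12938 and a median of 12557, and the astrocyte gene alrm at 469.

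Ribosomal protein genes formed the largest single group, with 26 of the 37 genes on the list in the top 100 and 5.82% of the summed signal for the whole list. RpL17 was the brightest (16230 to 18017, median 16582, rank 12), followed by RpS26 (15105 to 15906, median 15685, rank 14). The list fell into a bright and a dim set with nothing between them. Its 27 bright members had mean signals of at least 5831, the lowest being RpS12, and the other 10 had at most 1425. By name, the dim members were further copies of a ribosomal protein gene or only like one. They were RpL24-like, RpL37-2, RpL7-like, RpLP0-like, RpS5b, RpS28a, RpS19b, RpL22-like, RpS10a and RpL10Aa, down to 11.3 for RpL10Aa. Of the paralogues RpL10Ab and RpL10Aa, the first stood at rank 25 and the other at rank 10773. These 10 genes are named with their values seen.

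Genes of respiration and sugar use came next. Of 70 nuclear genes of oxidative phosphorylation 14 lay in the top 100 and 49 in the top 500, and the list held 5.29% of the summed signal. Its brightest members were blw, the alpha subunit of ATP synthase (12069 to 14567, median 13909, rank 22), and cype, a subunit of cytochrome c oxidase (11374 to 12604, median 12202, rank 38). The ADP/ATP carrier gene sesB stood at rank 21 with 13173 to 14689 and a median of 13824. All 9 glycolytic genes on the list were in the top 2000 and 7 in the top 500, led by the aldolase gene Ald1 (12265, rank 35) and Gapdh1 (9862, rank 67). All 9 genes of the citric acid cycle list were also in the top 2000, led by mAcon1, an aconitase (6591, rank 124), and Mdh1, a malate dehydrogenase (6488, rank 126). By contrast the 64 mitochondrial ribosomal protein genes had none in the top 500 and 16 in the top 2000.

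Muscle contributed 5 of its 24 listed genes to the top 100. These were the myosin light chain genes Mlc2 (13529 to 19691, median 17533, rank 11) and Mlc1 (mean 8982, rank 77), Argk1, the arginine kinase that buffers ATP (12491 to 13730, median 12928, rank 24), the actin gene Act87E (10449, rank 57) and SERCA, the calcium pump of the sarcoplasmic reticulum (8605, rank 87). Act87E rests on a probe set that recognises a gene family, so other actins may add to it. Another probe set of Argk1 had 1014. Act88F, counted above as a head marker, had 147.5 and stood at rank 6737. It is the actin of indirect flight muscle, which lies in the thorax.

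Cuticle and chemosensory transcripts were represented by few genes each. Acp1, an adult cuticle protein, stood at rank 13 with 12790 to 19899 and a median of 16979, while the other genes of the 88 in the cuticle protein families began at rank 190 with Cpr100A. Of 35 odorant-binding protein genes, which encode small carriers secreted around sensory neurons and elsewhere, Obp44a (11068 to 14049, median 12356, rank 34) and Obp99c (10420 to 12670, median 12150, rank 41) were in the top 100 and 6 in the top 500. EbpIII, named as an ejaculatory bulb protein and bright in the head, stood at rank 17 with 13945 to 15416 and a median of 14539. Of 81 cytochrome P450 genes 9 were in the top 500, led by Cyp6w1 (4582, rank 178), and of 39 proteasome genes 3 were.

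By role, the top 100 held 26 ribosomal protein genes, 14 of oxidative phosphorylation, 5 of muscle, 4 of vision, 4 of extracellular or lipid binding proteins, 3 yolk genes, 3 other fat body genes, 3 of translation and 3 of sugar metabolism. A further 18 genes had no role given here, and they included 3 of the 8 brightest: CG7203 (16056 to 24651, median 21351), CG17108 (17938 to 20564, median 20251) and CG6503 (17161 to 19083, median 18694). The roles were assigned after the order was known. Both polyubiquitin genes were present, Ubi-p5E at rank 42 and Ubi-p63E at rank 55, as were the metal-binding genes Tsf1 (rank 53) and MtnA (rank 82).

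**Figure D2:**
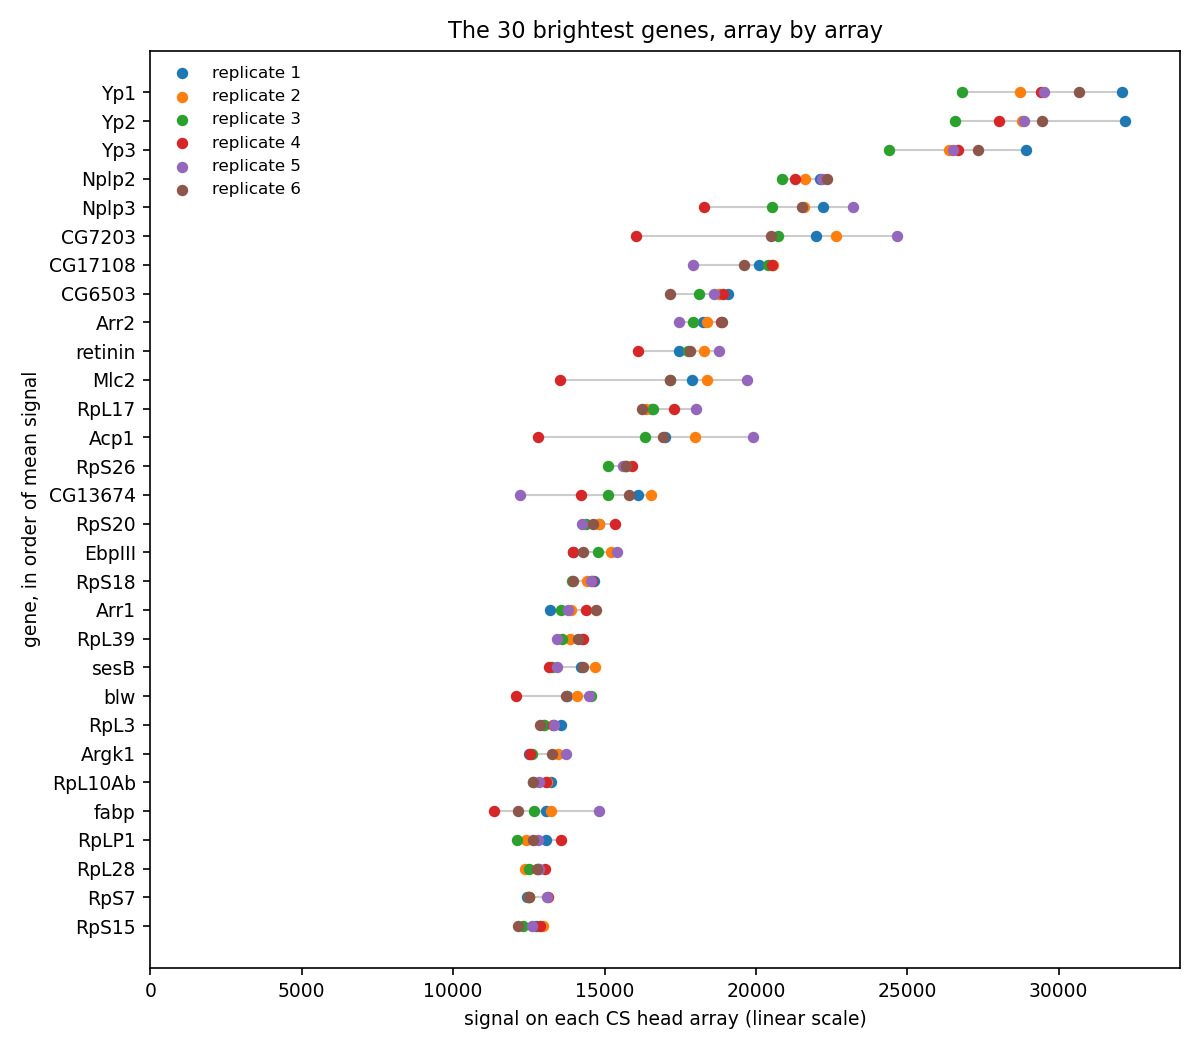
Signal (horizontal, linear scale) of the 30 brightest genes (vertical, in order of mean) on each of the 6 CS head arrays, coloured by replicate, with a line over the range. The points of ribosomal protein genes lie close together, while CG7203, Mlc2 and Acp1 have replicate 4 far to the left and replicate 5 to the right.

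Most of the top 100 stand on a single probe set, and 8 rest on probe sets whose suffix marks shared sequence or relaxed design rules: CG13674, cype, Ubi-p5E, ClC-a, Act87E, rut, CG34347 and Vajk2. The top 100 held 8 genes with further single-gene probe sets, and for 6 of them the next brightest was over 10-fold dimmer. The median ratio of brightest to next was 22.3 for these 8, against 2.28 over the 1209 genes with several probe sets. Among the 6 were Argk1 (next 1014, against 13014), ATPsynC (278.2 against 11458), ClC-a (479.1 against 10708) and apolpp (284.7 against 8882). Which probe set follows these genes better was not tested. For rut, an adenylyl cyclase gene, the other probe set had 411.8 against 9158, and for CG34347 the next had 145.5 against 8970. Both rest on gene-family probe sets, and both were low on replicates 2 and 4, with 7108 and 7405 for rut and 7117 and 7860 for CG34347, against at least 8724 for either gene elsewhere. Which transcript these 2 probe sets measure is uncertain. Using only plain probe sets kept 92 of the 100 genes.

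Some bright genes were neighbours in the genome. In the order of genes along the chromosomes of RefSeq's Release 6 table, 499 of the 500 brightest could be placed, and 135 of them lay in 60 runs, in which each gene was at most 3 genes from the next. That is 27.1% of those placed, against 22.9% of the genes at ranks 501 to 1000, 20.2% at ranks 1001 to 1500 and 20.8% at ranks 1501 to 2000 by the same step, and the difference was not tested. Most runs were pairs. Runs of related genes included Yp1 with Yp2, Obp56d with Obp56e, the ferritin subunit genes Fer1HCH with Fer2LCH, Vajk2 with Vajk3, and 4 bomanin genes, BomBc2, BomT2, BomS5 and BomS6. The longest run held 6 genes, with Nplp3 among CG13044, CG13063, CG13041, CG13059 and CG13040. Acp1, CG7214 and CG7203 formed a run of 3, and all 3 had their lowest signal on replicate 4.

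The order changed little from array to array. Ranking each CS array alone kept 93 to 98 of the 100 genes. The top 100 of the Rh1 heads shared 93 genes with that of CS heads, and the top 100 of IP shared 60. Among the top 500 the shared genes were 422 for Rh1 heads and 283 for IP. The IP arrays were less alike, with correlations of 0.909 to 0.985, against 0.988 to 0.996 in CS heads. Their 5′ over 3′ ratios were 0.028 to 0.531 for eIF-4a and 0.017 to 0.135 for actin, against 0.317 to 0.394 for actin in CS heads. The part of RNA quality in the counts for IP was not tested.

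Spread was measured as the SD of log2(signal + 32) over the 6 arrays. The median SD was 0.078 in the top 100, 0.130 in the top 500 and 0.094 over all genes, and 62.0% of the top 100 had an SD under 0.1. The median ratio of highest to lowest signal in the top 100 was 1.16. Bright genes were not uniformly steady, since the SD in the top 100 ran from 0.025 to 0.631.

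Ribosomal protein genes were the steadiest large group. Their 27 bright members had SDs of 0.025 to 0.069 with a median of 0.042, and the widest ratio of highest to lowest among them was 1.14. The median SD of the 29 members in the top 2000 was 0.044 in Rh1 heads and 0.043 in CS heads. For the whole top 2000 it was 0.101 in Rh1 heads and 0.105 in CS heads. Of the 10 steadiest genes in the top 500, 5 were ribosomal: RpS26, RpL40, which encodes a ribosomal protein fused to ubiquitin, RpL28, RpL10Ab and RpL3, with SDs of 0.025 to 0.029. Tctp, a protein tied to growth control, Mpc1, a subunit of the mitochondrial pyruvate carrier, Hsp60A, a mitochondrial chaperonin, sordd1 and puml made up the rest.

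Steadiness in CS heads did not always carry over to Rh1 heads. Mpc1 had 2228 to 2311 with a median of 2260 in CS heads, and its SD was 0.043 in Rh1 heads and 0.021 in CS heads. The gene puml had 1644 to 3614 in Rh1 heads, against 1605 to 1658 with a median of 1644 in CS heads, so that its SD was 0.512 in Rh1 heads and 0.020 in CS heads, the lowest of the 500. Replicates 3 and 4 of the Rh1 heads, at 2502 and 3614, lay above every CS array. Over the 50 steadiest genes of the top 500 the median SD was 0.063 in Rh1 heads and 0.043 in CS heads, and over the 50 most variable it was 0.124 in Rh1 heads and 0.315 in CS heads. Of these 50 most variable genes, 14 were also among the 50 of the same 500 that were most variable in Rh1 heads. Of the 50 steadiest, 1 was. The Rh1 arrays had no part in choosing either set, whereas the CS values chose both.

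**Figure D3:**
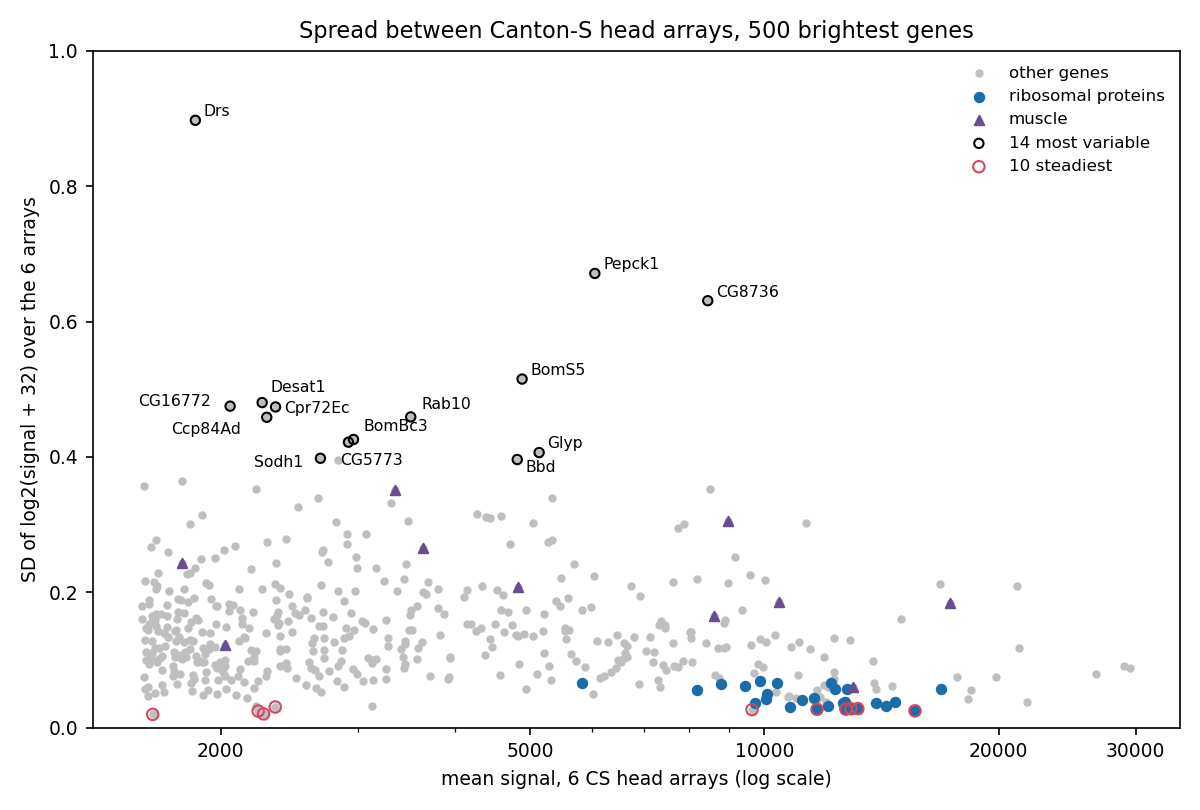
SD of log2(signal + 32) over the 6 CS head arrays (vertical) against mean signal (horizontal, log scale) for the 500 brightest genes. Ribosomal protein genes form a band under 0.07, muscle genes run from 0.060 to 0.351, and the 14 most variable genes, named and ringed in black, lie between 0.396 and 0.897.

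The 14 most variable genes of the top 500 included immune, metabolic and cuticle genes, with no ribosomal protein among them. Drs, the antifungal peptide drosomycin, had the largest SD, 0.897, with 735.2 to 3840 and a median of 1207. Replicates 5 and 6 stood at 3840 and 2975, and the other 4 arrays at 1207 or less. BomS5, a short bomanin, one of the secreted peptides induced by Toll signalling, had 3112 to 7595 with a median of 4090, again with replicates 6 and 5 highest. BomBc3 had 2177 to 4877 with a median of 2713, and Bbd, named bombardier, 3181 to 6625 with a median of 4346. In each of these 4 genes replicates 5 and 6 were the highest pair.

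The fixed list of antimicrobial peptides overlaps with these genes through Drs. Among the 8 antimicrobial peptide genes on the array 5 were in the top 2000, and their median SD was 0.171 in Rh1 heads and 0.400 in CS heads. Their median deviation from each gene's mean was 0.44 on replicate 5 and 0.50 on replicate 6, against -0.34 to 0.02 on the others. For the 4 genes without Drs it was 0.18 on replicate 5 and 0.44 on replicate 6, against -0.32 to 0.03. Mtk, the peptide metchnikowin, had 930 to 2170 and a median of 1276, with replicates 6 and 5 highest, whereas Drsl5 was highest on replicate 4. The 8 bomanin genes are a list chosen after the values were seen, which holds BomS5, BomBc3 and, shared with the antimicrobial list, BomS2. Replicate 6 was highest for 6 of them, while 11.3% of the top 2000 genes had it highest. Replicate 5 was highest for 0 of the 8 and lowest for 3, BomS6, BomT2 and BomS4, and the median deviation was -0.02 on replicate 5 and 0.27 on replicate 6. The brightest, BomS6, had 6064 to 9555 with a median of 8374. Leaving out BomS5 and BomBc3, 4 of 6 had replicate 6 highest.

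The 14 also held 4 genes of metabolic enzymes, Pepck1, Desat1, Glyp and Sodh1, in which replicate 5 was the highest or the lowest array. Pepck1, the enzyme that commits to sugar synthesis, had 2344 to 9257 with a median of 6052, highest on replicate 4 and lowest on replicate 5. Desat1, a fatty acid desaturase, had 1218 to 3106 with a median of 2259, highest and lowest on the same arrays, as was CG5773, a gene of unstated role, with 1753 to 4156 and a median of 2889. Glyp, the glycogen phosphorylase, ran the other way, with 3194 to 7021 and a median of 5422, lowest on replicate 4 and highest on replicate 5. Sodh1, a sorbitol dehydrogenase, had 1696 to 3911 with a median of 2653, highest on replicate 5 and lowest on replicate 6, and its SD was 0.353 without replicates 4 and 5 and 0.398 with them.

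The remaining variable genes were cuticle genes and genes of unstated role. CG8736, in the top 100 at rank 89, had 3467 to 12158 with a median of 8885, lowest on replicate 4 and highest on replicate 5. In Rh1 heads the same gene had 10258, 10459, 10867 and 11042, an SD of 0.049 against 0.631 in CS heads. Cpr72Ec, a cuticle protein gene, had 1478 to 3018 with a median of 2536, with replicates 1 and 2 lowest. Ccp84Ad, another one, measured by a gene-family probe set, had 1547 to 3732 with a median of 2262. CG16772 had 1465 to 3426 with a median of 1713, and Rab10 had 1978 to 4473 with a median of 3664 by a probe set of relaxed design.

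Of these 14 genes, 13 had a lower SD in Rh1 heads, with a median there of 0.146 and a range of 0.049 to 0.533. Because the 14 were chosen by their high SD in CS heads, a lower SD on other arrays was built into the choice. It does not show that they are steadier in Rh1 heads. Rab10 was the exception, with an SD of 0.533 in Rh1 heads and 0.459 in CS heads. The threshold between the 14 and the rest had no gap, with an SD of 0.396 on either side. Without replicate 5, 8 of the 14 were still among the 14 most variable.

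Replicates 4 and 5 stood apart in whole groups of genes. In the top 2000, replicate 4 was the lowest array for 17.9% of genes and replicate 5 the highest for 26.7%, both at once for 8.85%. Among 16 muscle genes in the top 2000, replicate 4 was lowest for 14, replicate 5 highest for 10, and both held for 8. The median deviation of these muscle genes on replicate 4 was -0.38, against 0.03 to 0.12 on the other 5 arrays. Prm, the thick filament protein paramyosin, was the most variable with 2083 to 4228 and a median of 3485, with an SD of 0.351, and Mlc1 had an SD of 0.305.

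Oxidative phosphorylation showed the same order in a weaker form. Of 54 such genes in the top 2000, replicate 4 was lowest for 36, replicate 5 highest for 31 and both for 20, with median deviations of -0.14 and 0.11. ND-15, a subunit of complex I, had the highest SD of these, 0.198, with 2099 to 3029 and a median of 2292. Glycolysis had replicate 4 lowest for 6 of 9 genes but replicate 5 highest for only 2. Cuticle protein genes had replicate 5 highest for 16 of 22 and replicate 4 lowest for 9. The Vajk genes, a family chosen after its values were seen, had replicate 4 lowest for all 3 members in the top 2000, with Vajk2 at 5346 to 10143 and a median of 8006.

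Other groups ran against this order or stood outside it. Of 24 translation factor genes in the top 2000, replicate 5 was lowest for 14, and of 14 cytochrome P450 genes for 10, while 29.4% of the top 2000 had it lowest. Replicate 4 was the highest and replicate 5 the lowest for 7 genes of each list, against 11.4% of the top 2000. Ribosomal protein genes had replicate 4 lowest for 0 of 29, and it was the highest array for most of them. Their median deviation was 0.05 there, against -0.03 to 0.01 on the other arrays. Phototransduction genes had replicate 4 lowest for 1 of 13 and an SD median of 0.080.

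**Figure D4:**
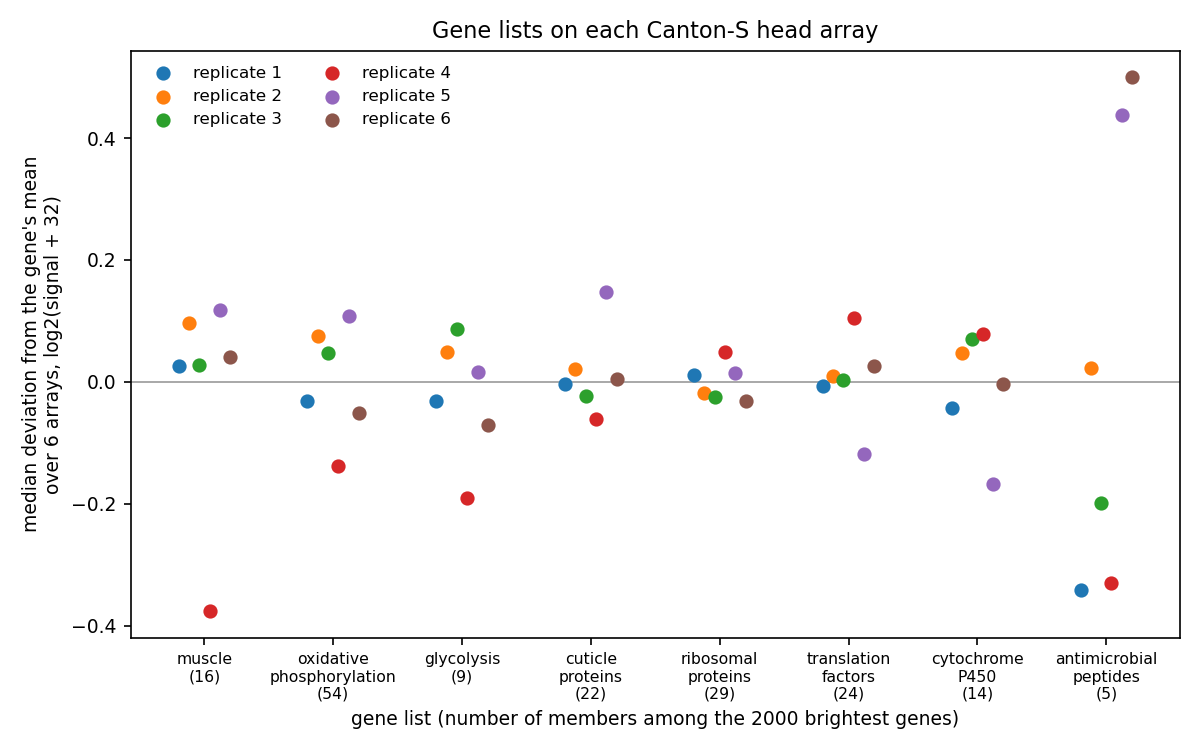
Median deviation of a list's genes from their own means over the 6 CS head arrays, in log2(signal + 32) units (vertical), for 8 gene lists (horizontal, with the number of members among the 2000 brightest genes), 1 point per array. Muscle lies at -0.38 on replicate 4 and antimicrobial peptides at 0.44 and 0.50 on replicates 5 and 6, while ribosomal proteins stay between -0.03 and 0.05.

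Replicates 4 and 5 were picked out by these same values, so a smaller spread of these groups without them was built into the choice. Without replicates 4 and 5 the spread of these groups was smaller. The median SD of the muscle genes was then 0.068, against 0.191 over all 6 arrays, and that of oxidative phosphorylation 0.078, against 0.119. For the top 500 it was 0.096, against 0.130. Pepck1 had an SD of 0.194 without the 2 arrays and 0.671 with them, and CG8736 had 0.210 and 0.631. Drs kept 0.822 of 0.897, and BomS5 had 0.567 without them and 0.515 with them. Body markers summed to 6199 on replicate 4 and 6175 on replicate 5, against 5672 to 6017 on the others. Head markers summed to 153956 on replicate 4 and 156150 on replicate 5, against 155491 to 163623 on the others. The eIF-4a ratio was 0.498 on replicate 4 and 0.562 on replicate 5, inside the range of the rest. The same ratio for the control transcript GAPDH set replicate 5 apart, with 0.541 there, against 0.291 to 0.397 on the other 5 arrays, of which replicate 4 had 0.294. For actin it was 0.336 on replicate 4 and 0.379 on replicate 5, against 0.317 to 0.394 on the others. The part of dissection, of RNA quality or of the flies themselves in these shifts was not tested.

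The same bright genes were then compared between Rh1 heads and CS heads, which asks how far the order differed between the groups. CS heads are labelled Canton-S and Rh1 heads Rh1-GAL4, so the strain background may differ as well as the transgene. The sample titles of the groups begin with different codes. Their eIF-4a ratios did not overlap, as given above. Nor did their actin ratios, 0.421 to 0.513 in Rh1 heads and 0.317 to 0.394 in CS heads. The GAPDH ratios were 0.405 to 0.468 in Rh1 heads. In CS heads they were 0.541 on replicate 5 and 0.291 to 0.397 on the others, so the ranges overlapped only through replicate 5. The parts of strain, transgene, sample handling and RNA quality in the folds cannot be told apart. With limma over 9776 probe sets and adjusted p under 0.05, 54.4% were called, 24.2% higher in Rh1 heads and 30.1% lower, but 1.4% were called with at least a 2-fold change. Of the top 100 genes 40 were called, 17 higher and 23 lower. The excess of lower calls was kept under median scaling, with 2431 probe sets higher and 2911 lower, and under quantile normalization, with 2509 and 2943. Without any scaling it was lost, with 2617 probe sets higher and 2585 lower, and 20 of the top 100 higher and 19 lower. The median absolute log2 fold was 0.10 for the top 100 and 0.18 for all tested, and the median log2 fold was -0.04 for the top 100 and -0.03 for all tested. The ranges of the groups were disjoint for 28 of the 100, and for 38.8% of all tested.

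Arrestin transcripts and fit were the genes of the top 100 that fell by at least 2-fold. Arr1 had 5232, 5190, 5241 and 5146 in Rh1 heads, against 13188 to 14718 with a median of 13846 in CS heads, a log2 fold of -1.41 (limma adjusted p = 2.61e-11). Arr2 had 8791, 8678, 9267 and 9026 in Rh1 heads, against 17462 to 18894 with a median of 18312 in CS heads, a log2 fold of -1.03 (limma adjusted p = 3.27e-10). The lens gene retinin and the dehydrogenase gene Pdh, also of the eye, had log2 folds of 0.11 and -0.06 and were not called. The channel gene trpl, just outside the top 100, had 690.1 to 772.1 in Rh1 heads, against 7052 to 7803 with a median of 7298 in CS heads, and its rank was 1407 in Rh1 heads against 109 in CS heads.

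The gene fit had 2995, 4139, 2787 and 2647 in Rh1 heads, against 5200 to 9119 with a median of 7998 in CS heads, a log2 fold of -1.29 (limma adjusted p = 9.05e-06). Its SD was 0.287 in Rh1 heads and 0.295 in CS heads. The remaining large falls were smaller: CG7214 fell by 0.55 on the log2 scale, Yp2 by 0.35, the trehalose synthesis gene Tps1 by 0.33, apolpp by 0.28 and Mpcp2 by 0.28. The call of apolpp was lost without Rh1 replicate 2 (limma adjusted p = 0.0542). Yp1 and Yp3 had log2 folds of -0.05 and -0.09 and were not called. Only Yp2 of the 3 had no overlap, with 21579 to 24765 in Rh1 heads and 26592 to 32187 in CS heads.

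The rises were all under 2-fold. MtnA, a metallothionein, had 12941, 13231, 14211 and 13911 in Rh1 heads, against 7708 to 9797 with a median of 8918 in CS heads, a log2 fold of 0.62 (limma adjusted p = 2.95e-06). CG4000 had a log2 fold of 0.59, CG34347 0.56, rut 0.45, CG8369 0.43, CG8343 0.38, SERCA 0.34 and Ubi-p5E 0.33. The other polyubiquitin gene, Ubi-p63E, rose by 0.28, with 11814 to 13695 in Rh1 heads and 10387 to 11208 in CS heads. The values for rut and CG34347 carry the uncertainty of their shared probe sets.

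**Figure D5:**
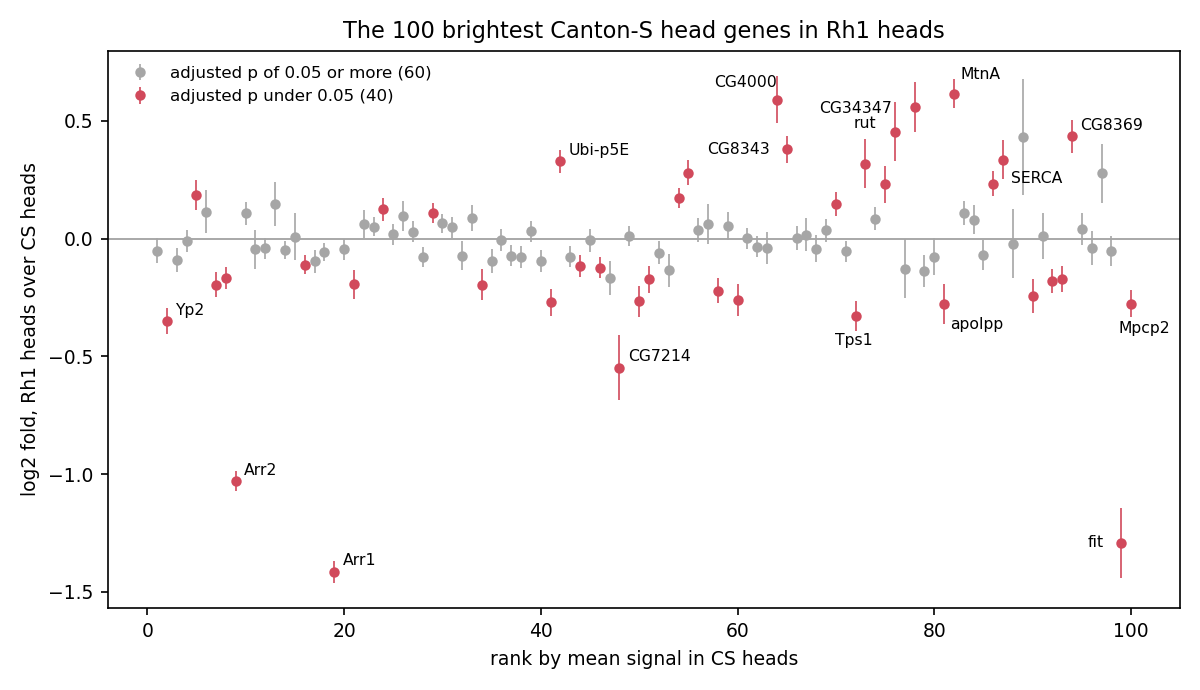
Log2 fold in Rh1 heads over CS heads (vertical, bars show the standard error from limma) for the 100 brightest genes of CS heads in order of rank (horizontal), coloured by the adjusted p. Arr2, Arr1 and fit lie at or below -1.03, and the other genes lie between -0.55 and 0.62.

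Among gene lists, phototransduction had the most lower calls for its size of those given here, with 14 of 17 tested members lower and 1 higher in Rh1 heads and a median log2 fold of -1.03. Of the 13 in the top 2000, 12 were lower, and their median was -2.05. The gene trp had 1049 to 1194 in Rh1 heads, against 5790 to 6909 with a median of 6477 in CS heads, and inaD, the scaffold that holds the signalling proteins together, had 559.2 to 600.4 in Rh1 heads, against 3403 to 3945 with a median of 3690 in CS heads. Galphaq was the gene that was higher, with a log2 fold of 0.95 (limma adjusted p = 3.11e-07), and rdgB and inaE were not called. Ribosomal protein genes were split, with 6 of 33 tested members higher and 6 lower in Rh1 heads. Of 62 tested genes of oxidative phosphorylation 40 were lower and 0 higher at adjusted p under 0.05, and of 31 proteasome genes 23 were higher and 2 lower. The background for these counts was 24.2% higher and 30.1% lower. Fat body had 7 of 16 lower and 0 higher, and muscle 7 of 21 higher and 4 lower.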

How the data were processed

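RNA of whole heads or anti-FLAG immunoprecipitates was measured on 14 single-colour Affymetrix arrays. The authors deposited linear intensities, 1 for each probe set on each array. How they were summarised from probes and scaled is not given in the sources used here. Targets came from about 10 µg of total RNA per whole-head sample, per the labels' protocols.

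Trimmed means (2% off each end) spread over 20.0%, so each array was scaled to their mean. Genes were ordered by mean linear signal in CS heads, and spread was the SD of log2(signal + 32). Of 13966 probe sets without controls, 12442 had 1 gene, of which 12393 matched the RefSeq table for Release 6, 327 had several and 1197 none. Rh1 heads were compared with CS heads by limma 3.58.1 under R 4.3.3 (lmFit, eBayes with trend, two-sided) on the 9776 probe sets whose mean log2 value over the 10 head arrays reached the 30th percentile, with Benjamini-Hochberg adjustment over all of them. Fold changes are on the log2(signal + 32) scale and understate those of low signals. The number of arrays limits the precision.

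Members, lists and tests were chosen with earlier results of these data known. Named genes are the 30 brightest, the 10 steadiest and 14 most variable of the top 500, for each of 38 lists its 2 brightest members and its most variable in the top 2000, and the 8 largest called rises and falls in the top 100. Others, such as markers, run and list members and the bomanin, Vajk and polyubiquitin genes, were named after their values were seen. The P450 and cuticle lists were corrected after the gene names were seen, to leave out Cyp1, a cyclophilin, and Cpr, a reductase. The fit was tested on simulated data. Numbers of head samples did not pair Rh1 with CS samples, with correlations of same-numbered deviations of -0.11 to 0.10. Alternatives were other scalings, pseudocounts, filters, probe set rules, eBayes without trend, a replicate block and leaving out arrays. Python 3.11.15, numpy 2.4.6, pandas 2.3.3 and matplotlib 3.10.9 were used.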

Additional observations from a re-analysis of the deposited data

Results flagged for a closer look

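Among 63 genes named for brightness, spread or fold, and 5 array measures, 89 sets of values were looked at. In 7 of them 1 array lay far from the others of its group. Chance gives about 1 in 20 for independent sets not chosen by their values. Many of these genes were chosen by such values and all share the same arrays, so that rate is no baseline for the 7. CS replicate 4 was the low array in 4 of these. It had 13529 for Mlc2, against 17157 to 19691 on the other CS arrays, 12069 for blw, against 13735 to 14567, 7340 for CG7214, against 11301 to 12845, and 7335 for CG4000, against 10110 to 11010. CS replicate 5 had 17938 for CG17108, against 19617 to 20564. CS replicate 6 had 5200 for fit, against 7444 to 9119. In Rh1 heads replicate 2 had 11970 for CG8343, against 13168 to 13411.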

How the results depend on the processing

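The order was stable under the settings tried. Other scalings kept 100 of the top 100 genes, the median over the arrays 99, averaging the single-gene probe sets of each gene 93 and plain probe sets only 92, while leaving out each CS array kept 98 to 100. The ribosomal protein list had 26 members in the top 100 under each of these. The median SD of the top 100 ran from 0.071 to 0.080 when each CS array was left out in turn and fell to 0.054 without CS replicates 4 and 5, an alternative chosen after seeing the data. The list of the 14 most variable genes depended on single arrays: leaving out each CS array in turn kept 8 to 14 of them. Without replicate 5 it kept 8, with Pepck1, Desat1, CG5773, Ccp84Ad, Rab10 and Sodh1 leaving. Without replicates 4 and 5 it kept 7. Other scalings and pseudocounts kept 13 or 14. The count of top 100 genes called in Rh1 heads versus CS heads was 40, ran from 28 to 42 when each array was left out, and was 44 without CS replicates 4 and 5. The lowest came without Rh1 replicate 4. With a replicate block it was 34, and the count over all probe sets was 4744 of 9776 in place of 5314. Every one of the 16 named folds kept its direction under the 20 alternatives of each, and the call was lost once, for apolpp without Rh1 replicate 2 (limma adjusted p = 0.0542). Signal over background, probe binding and any loss of linearity near the top were not measured.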
